A study of Mus musculus with 9 samples.

Results

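The mitochondrial ribosomal protein genes were taken as all gene symbols that begin with Mrpl or Mrps followed by a number, leaving out names that end in -ps, of which there were 0. Of 15768 genes in the table, 78 were members: 49 Mrpl genes, named for the large subunit, and 29 Mrps genes, named for the small subunit. RNA-seq was done on LLC1, a cell line from a Lewis lung carcinoma of the mouse, and on SCC1 and SCC2, each grown from a single LLC1 cell by limiting dilution. All 3 lines were labelled wild type, untreated tumour cells from lung, and were cultured in DMEM with 10% fetal bovine serum. The subclones were passaged at least 5 and at most 8 times, and each subclone is 1 clone, so what is particular to a clone cannot be told apart from what single-cell cloning does. Each line had 3 libraries, and no label says that they came from separate cultures, so the tests measure the spread between libraries, which may be technical.

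The mitochondrial ribosome translates the few messenger RNAs of the mitochondrial genome, which encode core subunits of the respiratory chain and of ATP synthase. Its small subunit binds the messenger RNA and reads the codons, and its large subunit joins the amino acids and passes the chain to the inner membrane. All of its proteins are encoded by nuclear genes spread over the chromosomes, made in the cytosol and imported. Some have a bacterial counterpart and bind the ribosomal RNA core, and others are found only in mitochondrial ribosomes. The symbols do not always give the place in the ribosome: MRPS30 and MRPS18A sit in the large subunit, and MRPS36, also called KGD4, is known as a subunit of the 2-oxoglutarate dehydrogenase complex.

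Levels were given as FPKM, a fragment count divided by the length of the gene and the size of the library. Whole fragments worked back from the FPKM values summed to 17094808 to 19398657 per library, and a member had 170 to 2145 fragments in a library. Among lung epithelial markers, 4 of 7 had rows, with summed levels of at most 1.22 FPKM in any library and no row for Sftpb, Scgb1a1 and Epcam. Among fibroblast markers, 6 of 6 had rows. Their summed level was 572 to 598 FPKM in LLC1, 258 to 268 in SCC1 and 692 to 714 in SCC2, nearly all of it Col3a1, while Col1a1 was at most 0.523. Among macrophage and leukocyte markers, 6 of 10 had rows, with sums of 16.1 to 17.7 in LLC1, 28.5 to 32.3 in SCC1 and 19.1 to 19.7 in SCC2. Mean levels in LLC1, SCC1 and SCC2 were 4.11, 9.14 and 3.05 FPKM for Cd68, 12.0, 18.4 and 15.6 for Cd14 and 0.267, 2.11 and 0.235 for Mrc1. Lyz2 was at most 0.253 and Fcer1g at most 0.741. Ptprc, Adgre1, Itgam and Tyrobp had no row, and Csf1r was at most 0.0266. Endothelial sums were at most 0.0960 and lymphocyte sums at most 0.318. The part of these markers in the results on members was not tested. In bulk libraries, fewer cells of a kind and less RNA per cell cannot be told apart.

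All 78 members passed the filter of at least 1 FPKM in at least 3 of 9 libraries, among 10519 genes tested. Mean levels over the 9 libraries ran from 3.59 FPKM for Mrpl1 to 96.6 for Mrpl12, a 26.9-fold range, with a median of 22.9 against 12.1 over all genes tested. The 3 highest large subunit genes were Mrpl12 at 96.6, Mrpl13 at 85.6 and Mrpl42 at 81.7 FPKM, and the 3 lowest were Mrpl1 at 3.59, Mrpl48 at 3.77 and Mrpl14 at 5.36. Among small subunit genes, Mrps6 at 91.3, Mrps21 at 54.6 and Mrps15 at 42.5 were highest. Mrps25 at 3.79, Mrps31 at 10.8 and Mrps11 at 12.5 were lowest. The order of levels was nearly the same in the 3 lines: Spearman's rho over the 78 genes was 0.981 between LLC1 and SCC1 and 0.972 between LLC1 and SCC2, as a description, since the same gene lengths and library method enter both sides. Levels of a member varied little within a line, with a median coefficient of variation of 4.02%. Differences between lines were small for most members, as the plot of each library against the LLC1 mean shows.

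**Figure D1:**
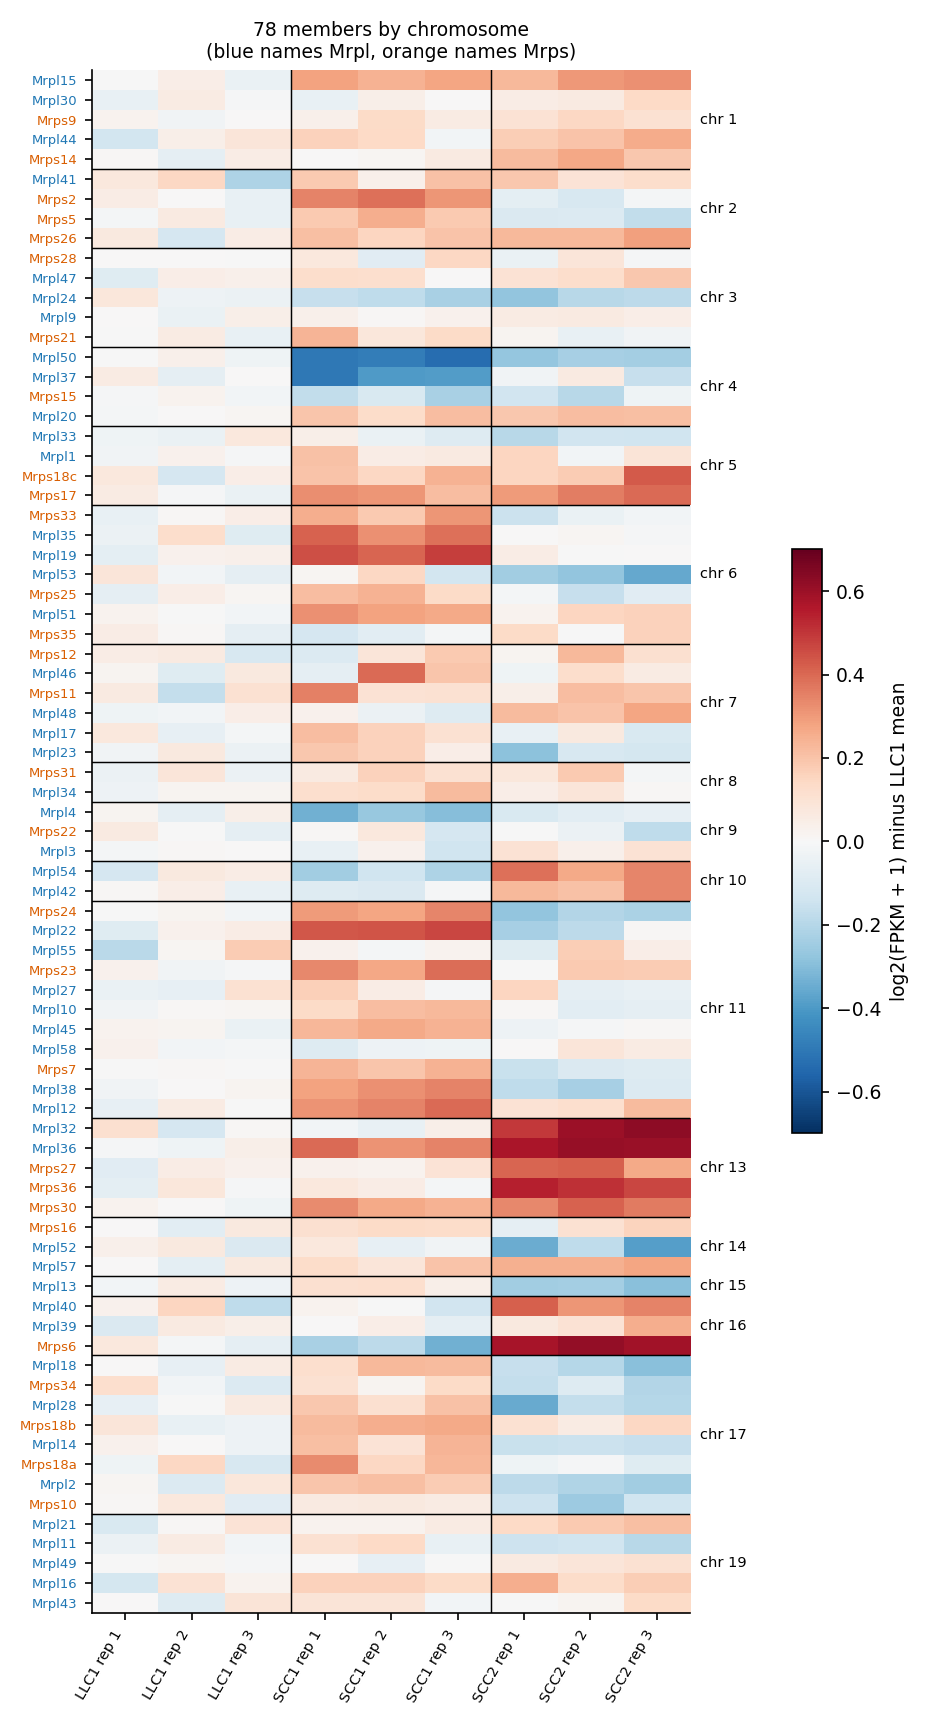
Difference of each library from the LLC1 mean (colour, log2(FPKM + 1) scale, white at 0) for the 78 genes (rows, ordered by chromosome and position) in the 9 libraries (columns). The 5 genes of chromosome 13 are red in the 3 SCC2 libraries, Mrpl50 and Mrpl37 on chromosome 4 are blue in the 3 SCC1 libraries, and the 3 libraries of a line look alike in most rows.

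The first comparison asked how SCC1 differed from LLC1. More members rose than fell. A gene is called higher or lower here where limma's adjusted p was under 0.05, and differences are on the log2(FPKM + 1) scale, which understates changes of low genes. Of the 78 members, 37 were higher in SCC1 (47.4%, against 39.2% of all genes tested) and 7 were lower (8.97%, against 30.9%). Of the large subunit genes, 21 of 49 were higher and 5 lower. Of the small subunit genes, 16 of 29 were higher and 2 lower. The median difference was 0.09 for large and 0.15 for small subunit genes, beside 0.03 for all genes tested. The large subunit median was 0.053 without LLC1 replicate 1, 0.06 without SCC1 replicate 1 and 0.053 with quantile normalization, which also took the small subunit median to 0.099. Subtracting the median difference of each chromosome gave 0.083 for large and 0.104 for small subunit genes, beside -0.002 for all genes tested. Few changes were large: 7 members were higher by at least 0.32 on the log2 scale (8.97%, against 10.6% of all genes) and 2 were lower by as much (2.56%, against 12.5%). With the median difference of each chromosome subtracted these counts were 1 and 0 (1.28% and 0%, against 6.16% and 10.7%). The members spread less than other genes, with an interquartile range of 0.20 against 0.34.

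Among large subunit genes, Mrpl22 (chr11:58171661-58179565) and Mrpl19 (chr6:81957851-81965958) rose most. Mrpl22, the counterpart of a bacterial protein that lines the peptide exit tunnel, had 11.6, 12.6 and 12.8 FPKM in the LLC1 libraries and 17.0, 17.1 and 17.4 in the SCC1 libraries, a difference of 0.45 ± 0.06 (SE, adjusted p = 2.2e-05). All SCC1 libraries lay above all LLC1 libraries. Mrpl19 had 8.02, 8.66 and 8.72 FPKM in LLC1 and 11.9, 11.6 and 12.2 in SCC1, a difference of 0.45 ± 0.04 (adjusted p = 7.93e-07), again without overlap. Mrpl35, Mrpl12 and Mrpl36 rose by 0.37, 0.35 and 0.35. The product of Mrpl12 forms the flexible stalk on which translation factors land. Its level was 82.0, 89.0 and 85.4 FPKM in LLC1 and 106.6, 109.0 and 112.8 in SCC1. The stalk gene was thus higher in every SCC1 library than in any LLC1 library (adjusted p = 4.43e-06). Among small subunit genes, Mrps2 rose by 0.35, Mrps23 by 0.33, Mrps24 by 0.31, and Mrps17 and Mrps30 by 0.28 each.

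The genes that fell in SCC1 were few. Mrpl50, known only from mitochondrial ribosomes, had 22.3, 22.9 and 21.9 FPKM in LLC1 and 15.5, 15.7 and 15.2 in SCC1, a difference of -0.50 ± 0.03 (adjusted p = 1.99e-08). Mrpl37, also mitochondrial only, went from 26.9, 24.7 and 25.9 FPKM in LLC1 to 18.0, 19.4 and 19.4 in SCC1, a difference of -0.43 ± 0.05 (adjusted p = 2e-05). Neither gene's SCC1 and LLC1 libraries overlapped. Mrpl50 lies at chr4:49512596-49521093 and Mrpl37 at chr4:107055874-107066868. Mrpl4 fell by 0.30, Mrps6 by 0.25, Mrpl54 by 0.20, Mrpl24 by 0.19 and Mrps15 by 0.17. Of these 7 genes, Mrpl50, Mrpl37 and Mrps15 lie on chromosome 4, where most other genes fell too, as set out further on. On chromosomes 9 and 10, which hold Mrpl4 and Mrpl54, 67.6% and 68.0% of the other genes tested were lower as well. On chromosomes 16 and 3, which hold Mrps6 and Mrpl24, the shares were 46.5% and 32.1%. Of the 44 members called in SCC1 against LLC1, 31 kept call and direction with chromosome medians subtracted. The call was lost for 12: Mrpl10, Mrpl13, Mrpl23, Mrpl37 (-0.10, adjusted p = 0.122), Mrpl54, Mrps7, Mrps9, Mrps16, Mrps18c, Mrps25, Mrps26 and Mrps33. Mrps15 was then called in the other direction, at 0.16, and Mrpl13 stood at -0.07 (adjusted p = 0.0535). The call of Mrps18c was also lost without LLC1 replicate 2 (0.14), SCC1 replicate 1 (0.19) or SCC1 replicate 3 (0.17), and that of Mrpl13 (0.09) without LLC1 replicate 1 (0.08) or 3 (0.07), or SCC1 replicate 1 (0.08) or 2 (0.08).

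The second comparison asked the same of SCC2. Here about as many members as other genes rose, and no fall reached 0.32. Of the 78 members, 28 were higher in SCC2 than in LLC1 (35.9%, against 34.7% of all genes tested) and 19 were lower (24.4%, against 32.9%). Of large subunit genes 17 were higher and 13 lower, and of small subunit genes 11 were higher and 6 lower. Median differences were 0.05 for large and 0.08 for small subunit genes, beside 0.01 for all genes tested. They were 0.016 and 0.018 with chromosome medians subtracted, so little of the difference between the subunits was left. Without SCC2 replicate 2 they were 0.030 and 0.046, and quantile normalization took the large subunit median to 0.029. By limma, 9 members were higher by at least 0.32 (11.5%, against 9.10% of all genes) and 0 were lower by as much (against 11.6%). With chromosome medians subtracted 1 member was higher by 0.32 (1.28%, against 5.16%) and 1 was lower (1.28%, against 10.4%).

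Mrpl36 rose most in SCC2. The gene encodes the counterpart of a small zinc-binding protein of the bacterial large subunit. It had 28.5, 28.1 and 29.6 FPKM in LLC1 and 43.1, 44.3 and 44.2 in SCC2, a difference of 0.60 ± 0.03 (adjusted p = 7.39e-09). Its SCC1 libraries lay between, at 38.1, 35.9 and 36.8, overlapping neither. Mrpl32, whose product is known to be cut by the m-AAA protease before it joins the ribosome, had 26.0, 22.1 and 24.1 FPKM in LLC1 and 34.2, 36.9 and 37.5 in SCC2, a difference of 0.57 ± 0.05 (adjusted p = 1.81e-06). In SCC1 it had 23.7, 23.2 and 24.7, within the range of LLC1 (difference -0.01, 95% interval -0.12 to 0.11). Mrps36 had 28.9, 32.1 and 30.1 FPKM in LLC1 and 44.8, 43.8 and 42.4 in SCC2, a difference of 0.51 ± 0.04 (adjusted p = 3.14e-07). Its SCC1 libraries, at 32.0, 31.5 and 30.1, overlapped those of LLC1. Mrps27 and Mrps30 rose by 0.36 and 0.37. These 5 genes are all the members on chromosome 13, where GENCODE M21 on GRCm38 places Mrpl32 at chr13:14608184-14613165, Mrpl36 at chr13:73328513-73332178, Mrps27 at chr13:99344786-99415562, Mrps36 at chr13:100735955-100744659 and Mrps30 at chr13:118378381-118387252.

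Mrps6 (chr16:92058270-92112227), the counterpart of a bacterial protein at the edge of the small subunit, stood out among small subunit genes. It had 86.0, 80.8 and 78.2 FPKM in LLC1, 69.5, 71.7 and 64.5 in SCC1 and 122.1, 125.6 and 123.3 in SCC2. The 3 lines did not overlap, with SCC2 highest and SCC1 lowest. The difference from LLC1 was -0.25 ± 0.04 in SCC1 (adjusted p = 0.000143) and 0.59 ± 0.04 in SCC2 (adjusted p = 1.23e-07). Exons of Mrps6 overlap exons of Slc5a3, the sodium/myo-inositol transporter gene, on the same strand, so that reads from the shared part cannot be told apart. Slc5a3 had 42.0 to 43.8 FPKM in LLC1, 36.3 to 37.9 in SCC1 and 51.9 to 53.9 in SCC2, the same order of the lines at smaller differences (-0.19 and 0.31).

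Others that rose in SCC2 were Mrpl40 by 0.36, Mrps17 by 0.35 and Mrpl54 by 0.33. Among those lower, Mrpl52 was at 81.3, 83.2 and 73.9 FPKM in LLC1 and 62.1, 69.9 and 60.6 in SCC2, a difference of -0.30 ± 0.06 (adjusted p = 0.000491), without overlap. Mrpl53 fell by 0.29, Mrpl13 by 0.26, Mrpl50 by 0.25 and Mrpl28 by 0.24. Mrpl53 has an exon overlap on its own strand with a predicted gene, so its value is uncertain. Among small subunit genes Mrps24 fell by 0.23 and Mrps10 by 0.18. With chromosome medians subtracted, 29 of the 47 calls in SCC2 against LLC1 were kept. The 18 lost were those of Mrpl2, Mrpl13 (then at 0.00), Mrpl14, Mrpl16, Mrpl18, Mrpl21, Mrpl39, Mrpl40, Mrpl44, Mrpl47, Mrpl49, Mrps5, Mrps9, Mrps10, Mrps15, Mrps27, Mrps30 and Mrps34.

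**Figure D2:**
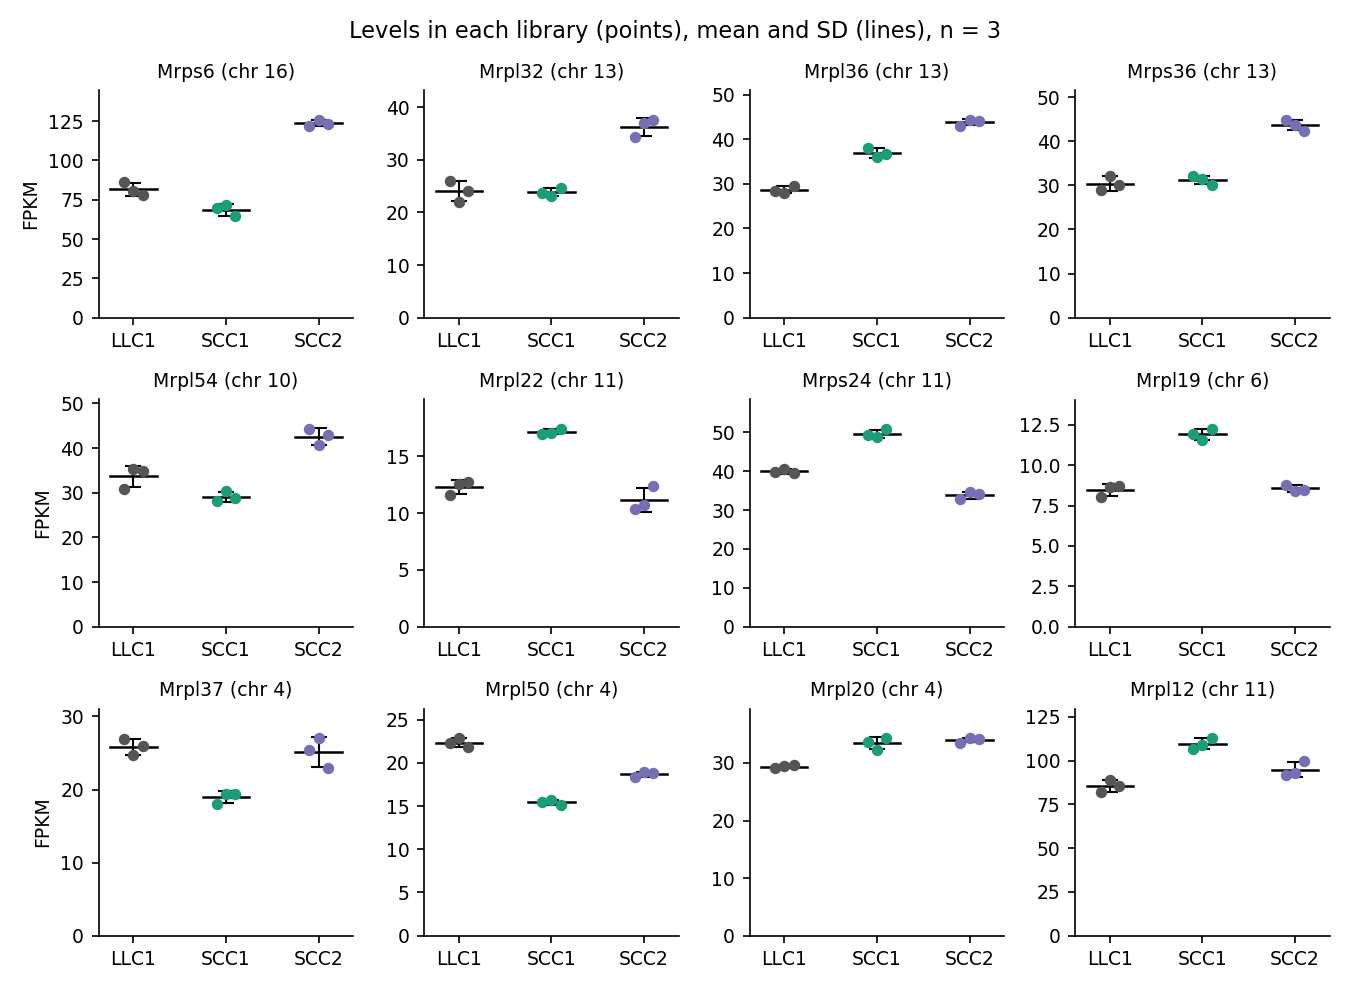
FPKM in each library (points, 3 per line) with the line's mean and SD for 12 genes named in the text. Mrps6, Mrpl32, Mrps36 and Mrpl54 are highest in SCC2, Mrpl22, Mrps24 and Mrpl19 are highest in SCC1, and Mrpl50 and Mrpl37 are lowest in SCC1.

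The third comparison set SCC2 against SCC1, which share no library with each other but are both compared with the same LLC1 libraries above. More members fell than rose. In SCC2, 22 members were higher (28.2%, against 37.0% of all genes tested) and 32 were lower (41.0%, against 39.4%). Of large subunit genes 16 were higher and 20 lower, and of small subunit genes 6 were higher and 12 lower. The median difference was -0.01 for large subunit genes, whose sign differed between settings, and -0.04 for small subunit genes. The small subunit median ran from -0.078 without SCC2 replicate 2 to -0.011 without SCC2 replicate 1. At 0.32 or more, 7 were higher (8.97%, against 16.3%) and 13 were lower (16.7%, against 18.2%). After subtraction of chromosome medians, 3 were higher and 4 lower by as much (3.85% and 5.13%, against 12.2% and 11.9%). Mrps6 differed most, by 0.84 ± 0.04 (1.80-fold, adjusted p = 2.69e-09), followed by Mrpl32 at 0.58, Mrpl54 at 0.53 and Mrps36 at 0.47.

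Of the genes lower in SCC2 than in SCC1, Mrpl22 differed by -0.58 ± 0.06 (adjusted p = 1.55e-06), with 10.3, 10.7 and 12.4 FPKM in SCC2. Mrps24, the counterpart of bacterial S3 at the entry of the messenger RNA, had 49.4, 48.7 and 50.8 FPKM in SCC1 and 32.8, 34.6 and 34.1 in SCC2, with LLC1 between them at 39.8, 40.6 and 39.5. The difference was -0.54 ± 0.03 (adjusted p = 3.56e-09), and no library of 1 line overlapped another line. Its exons overlap those of Urgcp on the same strand, so part of its reads could belong to that gene. Mrpl38 differed by -0.49, Mrpl19 by -0.43, Mrps2 by -0.41, Mrpl2 by -0.41 and Mrpl28 by -0.41. Between the subclones, 29 of the 54 calls were kept with chromosome medians subtracted. The 21 lost were those of Mrpl10, Mrpl12 (then at 0.01), Mrpl21, Mrpl30, Mrpl36, Mrpl37, Mrpl40, Mrpl42, Mrpl45, Mrpl50, Mrpl51, Mrpl53, Mrpl57, Mrps10, Mrps18a, Mrps18b (then at 0.04), Mrps23, Mrps25, Mrps27, Mrps33 and Mrps34. Called in the other direction were 4: Mrpl13 (0.08), Mrpl39, Mrpl49 and Mrps30 (-0.17). The call of Mrps30 (0.09) was also lost without SCC1 replicate 3 (0.07) or SCC2 replicate 2 (0.07).

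**Figure D3:**
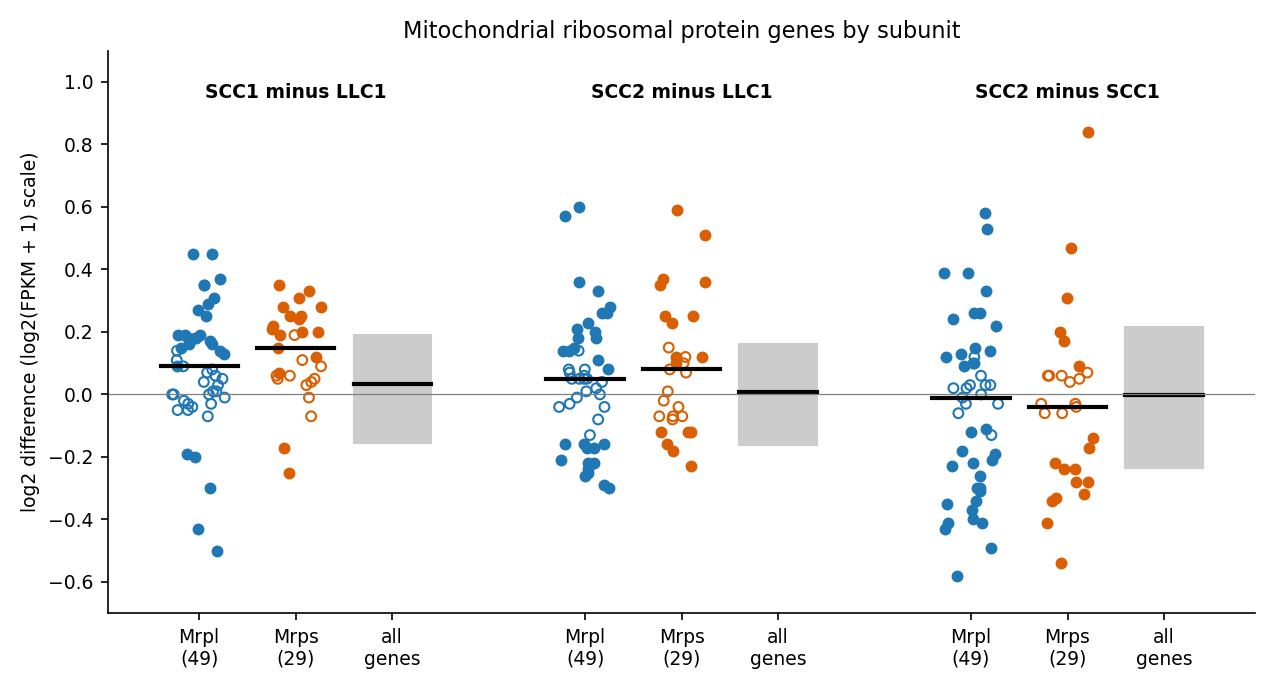
Log2 difference of each of the 49 Mrpl and 29 Mrps genes (points) in the 3 comparisons, filled where the adjusted p was under 0.05, with the median (black line). Grey boxes give the lower and upper quartile and the median of the 10519 genes tested. The small subunit median is drawn above the large subunit median in both comparisons with LLC1, and Mrps6 is the highest point in SCC2 minus SCC1. With chromosome medians subtracted, the small and large subunit medians were 0.104 and 0.083 in SCC1 and 0.018 and 0.016 in SCC2.

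Members were also counted by whether the libraries of 2 lines overlapped. SCC1 and LLC1 libraries were apart for 56.4% of members and 72.3% of all genes tested. SCC2 and LLC1 were apart for 59.0% and 70.7%, and the subclones for 73.1% and 77.9%, which lie close together. Of the 78 members, 12 (15.4%, against 9.08% of all genes) were called in no comparison: Mrpl1, Mrpl9, Mrpl27, Mrpl41, Mrpl43, Mrpl46, Mrpl55, Mrps11, Mrps12, Mrps22, Mrps28 and Mrps31. Called in both subclones against the shared LLC1 libraries were 29 members. Of these, 14 were higher in both (17.9% of members, against 14.6% of all genes), 3 were lower in both (3.85%, against 12.7%), namely Mrpl24, Mrpl50 and Mrps15, and 12 went in opposite directions (15.4%, against 22.4%). The 14 were Mrpl12, Mrpl15, Mrpl16, Mrpl20, Mrpl36, Mrpl51, Mrpl57, Mrps9, Mrps17, Mrps18b, Mrps18c, Mrps23, Mrps26 and Mrps30, so 7 of each subunit. With chromosome medians subtracted both calls were kept for 9 of the 14, and not for Mrpl16, Mrps9, Mrps18c, Mrps26 and Mrps30. They were kept for 2 of the 3, not for Mrps15, and for 4 of the 12: Mrpl28, Mrpl38, Mrps6 and Mrps24. Mrps15, at 44.9 to 46.2 FPKM in LLC1, 38.6 to 42.1 in SCC1 and 39.6 to 44.5 in SCC2, lost its SCC2 call without LLC1 replicate 2 (-0.11), SCC2 replicate 1 (-0.11) or SCC2 replicate 2 (-0.08). These names follow from the counts and were chosen after their values were seen.

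The balance of the 2 subunits was described by summed FPKM. The 49 large subunit genes summed to 1356 ± 12.3 FPKM (SD, n = 3) in LLC1, 1447 ± 3.51 in SCC1 and 1373 ± 15.3 in SCC2. The 29 small subunit genes summed to 803.2 ± 13.5, 875.4 ± 7.68 and 884.8 ± 12.0. Both sums were higher in every SCC1 library than in any LLC1 library, and in SCC2 this held for the small subunit only: the large subunit ranges of LLC1 (1342 to 1366) and SCC2 (1356 to 1386) overlapped. The ratio of the small to the large sum was 0.593 ± 0.014 in LLC1, 0.605 ± 0.005 in SCC1 and 0.645 ± 0.003 in SCC2. Mrps6 carried most of the SCC2 excess: without it the ratios were 0.532 ± 0.011, 0.558 ± 0.006 and 0.555 ± 0.002, so that the subclones overlapped and both lay above LLC1. That order depended on the assignment of 3 genes. With Mrps30 and Mrps18a moved to the large subunit and Mrps36 left out, as the ribosome structure places them, the ratios without Mrps6 were 0.453, 0.436 and 0.436 in the LLC1 libraries, 0.459, 0.455 and 0.462 in SCC1 and 0.442, 0.446 and 0.448 in SCC2. SCC2 then overlapped LLC1, and SCC1 lay above both. With Mrps6 kept, SCC1 overlapped LLC1 under both assignments. The ratios by structure were then 0.499 ± 0.013 in LLC1, 0.503 ± 0.001 in SCC1 and 0.531 ± 0.003 in SCC2, and SCC2 lay above both. By structure 23 of 51 large and 14 of 26 small subunit genes were higher in SCC1 than in LLC1. Small subunit genes higher in SCC2 than in SCC1 were then 4 in place of 6, and those higher by 0.32 in SCC2 than in LLC1 were 3 in place of 5.

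Members were also split by whether the protein has a bacterial counterpart, from general knowledge of the ribosome. In SCC1 against LLC1, 17 of 30 large subunit genes with a counterpart were higher and 2 lower (56.7% and 6.67%, against 39.2% and 30.9% of all genes tested). Of the 19 known only from mitochondria, 4 were higher and 3 lower (21.1% and 15.8%). For small subunit genes, 11 of 18 with a counterpart were higher and 2 lower (61.1% and 11.1%). Without a counterpart, 5 of 10 were higher and 0 lower (50% and 0%). In SCC2 against LLC1, large subunit genes with a counterpart had 8 higher and 9 lower (26.7% and 30%, against 34.7% and 32.9% of all genes tested). Those without had 9 higher and 4 lower (47.4% and 21.1%). Between the subclones, 6 large subunit genes with a counterpart were higher in SCC2 and 15 lower (20% and 50%, against 37.0% and 39.4% of all genes tested). Among those without, 10 were higher and 5 lower (52.6% and 26.3%). Subtracting chromosome medians left 6 and 14 with a counterpart but 3 and 5 without between the subclones. In SCC2 against LLC1 it left 7 higher and 5 lower with a counterpart and 6 and 4 without. Between the subclones the shares higher were then 20% with and 15.8% without a counterpart, while the shares lower, 46.7% and 26.3%, stayed apart. The medians there went from -0.083 and 0.102 to -0.057 and 0.042. For SCC2 against LLC1 they went from 0.014 and 0.085 to 0.01 and 0.032. In both of these comparisons the contrast between the classes was thus smaller. In SCC1 against LLC1 subtraction left 16 higher and 2 lower of 30 with a counterpart, and 6 and 2 of 19 without. The medians there went from 0.142 and -0.002 to 0.11 and 0.051, a smaller contrast. Over all genes tested, subtraction left 30% higher and 30.8% lower in SCC1, 29.3% and 29.6% in SCC2, and 33.3% and 33.7% between the subclones. No test was made between these classes.

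Chromosomal position went with much of the spread among members. Members lie on 17 chromosomes. For each member, the difference was set beside the median difference of the other tested genes of its chromosome. Pearson's r over the 78 members was 0.67 in SCC1 against LLC1, 0.72 in SCC2 against LLC1 and 0.75 between the subclones (Spearman's rho 0.56, 0.62 and 0.72). Genes of 1 chromosome share a median, and the comparisons share libraries, so these values are a description. Over the 10424 other tested genes, r was 0.38, 0.40 and 0.43. A member differed in the direction of its chromosome in 65, 57 and 58 of 78 cases (83.3%, 73.1% and 74.4%), and another gene tested in 69.6%, 68.9% and 69.5%, so the members' last 2 shares lay near those of other genes. The SD of the members' differences was 0.18, 0.21 and 0.27, and after subtraction of the chromosome median 0.13, 0.15 and 0.18. DNA copy number was not measured, and its part was not tested.

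**Figure D4:**
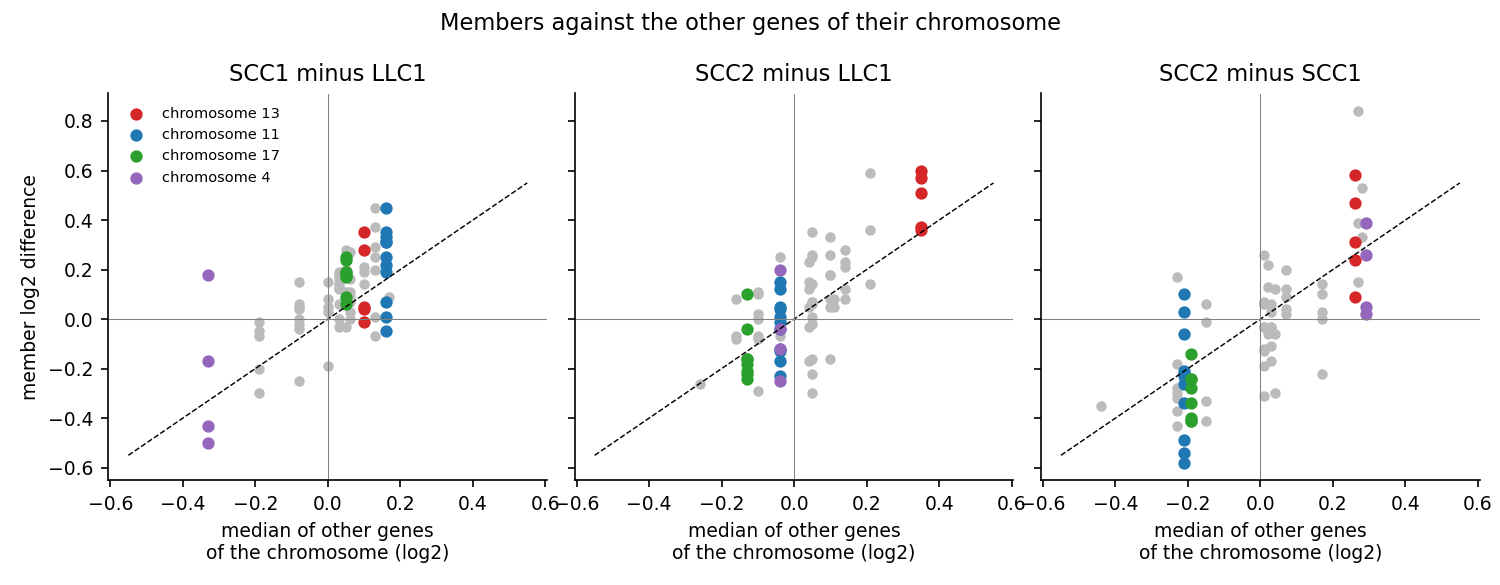
Log2 difference of each of the 78 genes (vertical axis) against the median log2 difference of the other tested genes of its chromosome (horizontal axis) in the 3 comparisons. The dashed line marks equal values, and coloured points are the genes of chromosomes 13, 11, 17 and 4. The 5 genes of chromosome 13 lie at the upper right in SCC2 minus LLC1, and 1 gene of chromosome 4, Mrpl20, lies far above the line in SCC1 minus LLC1.

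On chromosome 13, Mrpl32, Mrpl36, Mrps27, Mrps30 and Mrps36 were all higher in SCC2 than in LLC1, by 0.36 to 0.60. The 400 other tested genes there had a median of 0.35, and 80.2% of them were higher. On chromosome 17, all 8 members were lower in SCC2 than in SCC1, with a median of -0.31: Mrpl2, Mrpl14, Mrpl18, Mrpl28, Mrps10, Mrps18a, Mrps18b and Mrps34. Of the 524 other genes, 65.3% were lower, with a median of -0.19. Chromosome 11 holds 11 members, of which 8 were higher in SCC1 than in LLC1 (median 0.25, other genes 0.16), as were 63.5% of the 869 other genes. In SCC2 against SCC1, 8 of these 11 were lower and 1, Mrpl58, was higher, and 70.9% of the other genes were lower. On chromosome 16, Mrpl39, Mrpl40 and Mrps6 were higher in SCC2 than in either other line, as were 68.2% of the 327 other genes against LLC1.

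Chromosome 4 held both the strongest falls and an exception. In SCC1, 82.3% of its 610 other tested genes were lower than in LLC1, with a median of -0.33, and Mrpl50, Mrpl37 and Mrps15 were lower as well. Mrpl20, the counterpart of a bacterial protein that binds the ribosomal RNA early in assembly, was higher: it had 29.1, 29.4 and 29.6 FPKM in LLC1, 33.7, 32.2 and 34.3 in SCC1, and 33.5, 34.3 and 34.1 in SCC2. Both subclones lay above LLC1 and overlapped each other. The difference was 0.18 ± 0.03 in SCC1 (adjusted p = 7.37e-05) and, relative to the chromosome, 0.51 (adjusted p = 1.9e-08).

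With the chromosome median subtracted in each library, 33 members were higher and 6 lower in SCC1 than in LLC1, against 30% and 30.8% of all genes tested (42.3% and 7.69% of members). In SCC2 against LLC1, 22 were higher and 11 lower (28.2% and 14.1%, against 29.3% and 29.6%). Between the subclones, 14 were higher and 26 lower (17.9% and 33.3%, against 33.3% and 33.7%). Relative to their chromosomes, Mrpl20, Mrpl19 (0.30), Mrpl22 (0.28) and Mrpl36 (0.26) were highest in SCC1, and Mrpl58 (-0.22), Mrps35 (-0.21) and Mrpl24 (-0.21) were lowest. In SCC2, Mrps6 (0.38), Mrps17 (0.29) and Mrps26 (0.29) were highest and Mrpl52 (-0.35) was lowest. Mrps6 thus differed between the subclones beyond its chromosome, by 0.55 (adjusted p = 1.58e-07), and so did Mrps35 (0.41), Mrpl58 (0.32) and Mrpl32 (0.32) upwards and Mrpl11 (-0.40) and Mrpl22 (-0.37) downwards.

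Members with roles of their own were followed by name. Mrpl11, at the base of the stalk, had 9.27 to 10.0 FPKM in LLC1, 9.17 to 10.6 in SCC1 and 8.25 to 8.58 in SCC2. It was lower in SCC2 than in LLC1 (-0.16, adjusted p = 0.0135), a call lost without LLC1 replicate 2 (-0.13). Mrpl45, which faces the inner membrane near the exit tunnel, was at 17.6 to 18.5 FPKM in LLC1, 21.6 to 22.1 in SCC1 and 17.7 to 18.3 in SCC2, and rose only in SCC1 among the comparisons with LLC1 (0.25, adjusted p = 9.49e-06). The difference between the subclones was itself called (-0.26, adjusted p = 4.19e-06). Mrpl44, a protein with an RNase III fold, had 13.0 to 15.2 FPKM in LLC1 and 16.2 to 17.2 in SCC2, a difference of 0.21 (adjusted p = 0.00749). Mrpl58, a peptidyl-tRNA hydrolase that releases stalled chains, had 37.8 to 39.1, 35.9 to 37.4 and 38.3 to 40.7 FPKM and was called only between the subclones (0.10, adjusted p = 0.00657), a call that limma-voom did not make.

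In the small subunit, Mrps12 and Mrps22 passed no comparison. Mrps12, at the decoding centre, had 15.9 to 18.1 FPKM in LLC1, 16.1 to 19.8 in SCC1 and 17.5 to 20.4 in SCC2, and the 95% interval of its SCC2 difference from LLC1 was -0.04 to 0.28. Mrps22, known only from mitochondria, had 17.8 to 19.5, 17.1 to 19.7 and 16.4 to 18.6 FPKM. Mrps28 had 18.6 to 18.7 FPKM in LLC1 and overlapped both subclones. Mrps5, the counterpart of a bacterial protein at the messenger RNA channel, rose by 0.21 in SCC1 and fell by 0.12 in SCC2. Mrps34, which is needed for a stable small subunit, fell by 0.16 in SCC2 (adjusted p = 0.016), a call lost without LLC1 replicate 1 (-0.10) or SCC2 replicate 3 (-0.13), and its exons overlap Nme3 on the same strand.

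The 3 genes related to bacterial S18 rose by similar amounts in SCC1. In SCC2 only Mrps18b and Mrps18c were called against LLC1, and the 3 genes were not tested against one another. Mrps18a, in the large subunit, had 27.9 to 33.7 FPKM in LLC1, 33.7 to 38.5 in SCC1 and 28.6 to 30.1 in SCC2, and rose in SCC1 by 0.24 (adjusted p = 0.00426). Mrps18b had 20.2 to 22.4, 24.6 to 25.4 and 21.9 to 23.3 FPKM and rose in SCC1 by 0.25 and in SCC2 by 0.10. The SCC2 call of Mrps18b was lost without LLC1 replicate 2 (0.08) or 3 (0.09), or SCC2 replicate 1 (0.10) or 3 (0.08). Mrps18c had 18.6 to 21.4, 22.5 to 24.2 and 22.7 to 27.6 FPKM, with differences of 0.20 in SCC1 and 0.25 in SCC2. Between the subclones Mrps18a and Mrps18b were lower in SCC2, by 0.28 and 0.14, and Mrps18c differed by 0.06 (95% interval -0.10 to 0.21). Mrps18a and Mrps18b lie on chromosome 17, and Mrps18c on chromosome 5. With chromosome medians subtracted, the 3 subclone differences were -0.10, 0.04 and 0.05, none of them called. Those of SCC2 from LLC1 were then 0.09, 0.23 and 0.19.

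Many members start beside another gene. A protein-coding gene on the opposite strand started within 1000 bases upstream of 18 members, and 16 of these neighbours were tested. In SCC2 against LLC1 both genes of a pair were called in 10 pairs, 8 of them in the same direction. The same counts were 4 of 5 in SCC1 against LLC1 and 9 of 10 between the subclones. Over all genes tested, 34.7% were higher and 32.9% lower in SCC2 against LLC1. The shares were 39.2% and 30.9% in SCC1 against LLC1, and 37.0% and 39.4% between the subclones. Agreement among other neighbouring genes was not counted, so these counts are a description. Mrps27 starts 81 bases from Ptcd2, which encodes a mitochondrial RNA-binding protein, and these genes differed by 0.36 and 0.39 in SCC2 against LLC1. Mrpl40 and Hira, a histone chaperone gene 175 bases away, differed by 0.36 and 0.32. Mrpl32 and Psma2, a proteasome subunit gene 75 bases away, differed by 0.57 and 0.39. In SCC1 this pair was apart: Psma2 rose by 0.17 (adjusted p = 9.41e-05) while Mrpl32 was at -0.01. Mrpl2 and Klc4, 207 bases apart, went in opposite directions in SCC1, at 0.19 and -0.23. Over the 16 pairs Pearson's r was 0.67, 0.85 and 0.82 in the 3 comparisons, and -0.12, 0.64 and 0.33 after chromosome medians were subtracted, as a description of neighbours that share a chromosome.

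**Figure D5:**
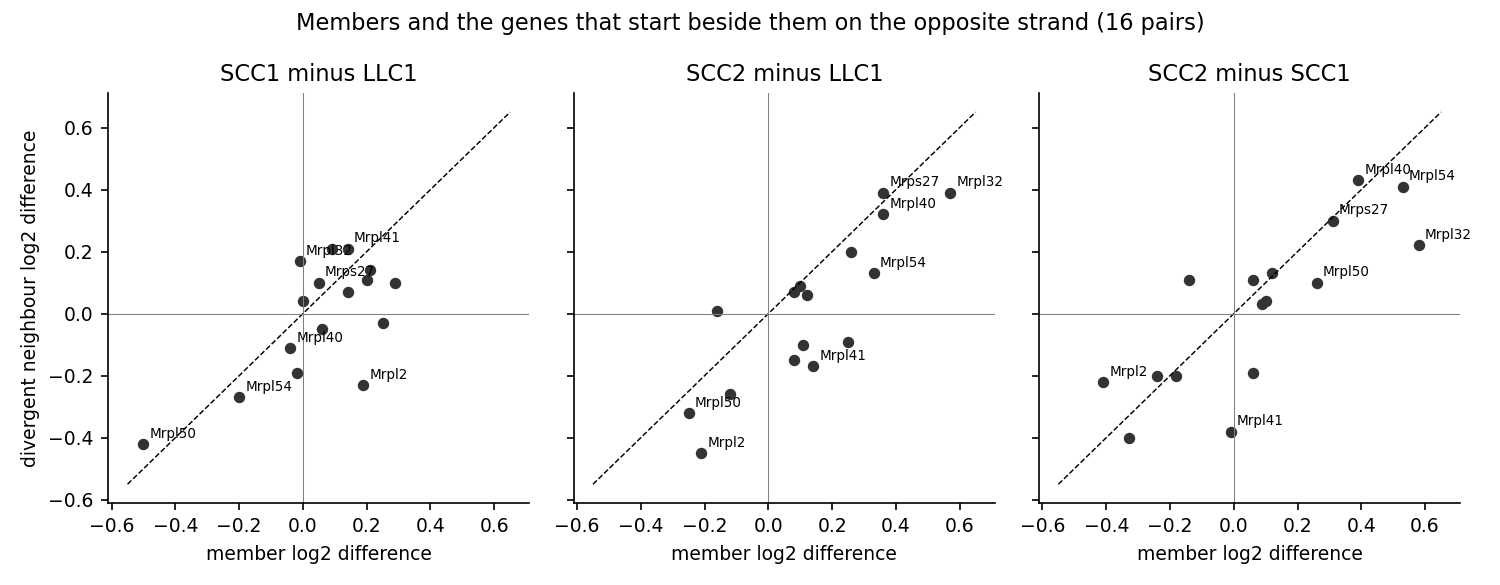
Log2 difference of the neighbouring gene (vertical axis) against that of the member (horizontal axis) for the 16 pairs that start within 1000 bases of each other on opposite strands, in the 3 comparisons, with a dashed line at equal values. Mrps27, Mrpl40 and Mrpl32 lie at the upper right with their neighbours in SCC2 minus LLC1, and Mrpl2 lies below the horizontal zero line in all 3 plots.

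Promoters were read from RefSeq sequences on build GRCm38.p6, from 250 bases before to 50 after each start. Of the 78 members, 69 had at least 1, in 75 promoters. The search covered 5 motifs on both strands, with any overlap allowed. The letters CCGGAAG, the core bound by ETS factors such as GABP, were in 34.7% of member promoters, 19.1% of those of genes tested and 8.86% of all promoters. The YY1 core AAGATGGC was in 16% of member promoters, 4.78% of those of genes tested and 2.75% of all. For the NRF1 core GCATGCGC the shares were 10.7%, 5.62% and 2.71%. The E-box CACGTG, bound by Myc, was in 9.33%, 10.3% and 7.15%. The letters CCAAT were in 40%, 38.3% and 37.4%. Large and small subunit promoters held the ETS core in 31.2% and 40.7%, the YY1 core in 12.5% and 22.2% and the NRF1 core in 14.6% and 3.7%. A match is a description of letters and not of binding.

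Promoter sequence is shown for 5 members that carry the contrasts above: Mrps27 and Mrps36, which rose together on chromosome 13 in SCC2, Mrpl20, which went against chromosome 4, Mrps17, which was higher in both subclones also relative to its chromosome, and Mrps24, which went in opposite directions in the subclones. Each runs 5′ to 3′ on the strand of the gene and ends at the base before the start, with letters that match a searched motif on either strand in capitals. The stretches are chr13:99344706-99344785 (+ strand) for Mrps27, chr13:100744660-100744779 (- strand) for Mrps36, chr4:155802758-155802877 (+ strand) for Mrpl20, chr5:129715377-129715496 (+ strand) for Mrps17 and chr11:5707702-5707821 (- strand) for Mrps24. That of Mrps27 has 80 bases, up to the first exon of Ptcd2, and the others have 120.
Mrps27: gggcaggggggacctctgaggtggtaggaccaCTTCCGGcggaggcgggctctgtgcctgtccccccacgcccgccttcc
Mrps36: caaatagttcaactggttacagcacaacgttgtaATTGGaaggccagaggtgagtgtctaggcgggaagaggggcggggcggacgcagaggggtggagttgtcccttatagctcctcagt
Mrpl20: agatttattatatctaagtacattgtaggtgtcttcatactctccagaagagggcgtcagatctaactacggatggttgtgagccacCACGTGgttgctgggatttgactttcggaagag
Mrps17: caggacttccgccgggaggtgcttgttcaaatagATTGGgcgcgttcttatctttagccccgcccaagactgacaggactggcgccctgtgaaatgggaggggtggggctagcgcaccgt
Mrps24: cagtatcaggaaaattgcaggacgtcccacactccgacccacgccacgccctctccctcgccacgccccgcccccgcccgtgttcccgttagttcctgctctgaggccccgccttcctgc
The capitals mark the ETS core 48 to 42 bases before the start of Mrps27, the CCAAT letters 86 to 82 bases before the starts of Mrps36 and Mrps17, and the E-box 33 to 28 bases before the start of Mrpl20. Mrps24 has none of the searched letters in this window.

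The other genes of mitochondrial translation were taken from lists, whose counts stand beside 39.2% higher and 30.9% lower of all genes tested in SCC1 against LLC1, 34.7% and 32.9% in SCC2 against LLC1, and 37.0% and 39.4% between the subclones. Of the 5 mitoribosomal proteins with other symbols, Ptcd3, a small subunit protein that binds RNA, rose in SCC1 from 29.3 ± 0.80 to 38.0 ± 0.53 FPKM (SD, n = 3, difference 0.36, adjusted p = 1.43e-07) and fell in SCC2 by 0.09. Gadd45gip1, of the large subunit, rose in SCC1 by 0.19. Aurkaip1, on chromosome 4, fell by 0.16 in SCC1 and by 0.17 in SCC2. Dap3, a GTP-binding small subunit protein, fell by 0.17 in SCC2, and Chchd1 passed no comparison. Of 15 translation factors tested, 9 were higher (60%) and 2 lower (13.3%) in SCC1, and 2 were higher (13.3%) and 3 lower (20%) in SCC2. Lrpprc, which stabilises mitochondrial messenger RNAs with Slirp, went from 27.7 ± 0.94 FPKM in LLC1 to 38.5 ± 0.28 in SCC1 (0.46, adjusted p = 6.58e-08), and Slirp rose by 0.30. Mtif2, the initiation factor, rose by 0.29 in SCC1 and fell by 0.28 in SCC2. Guf1 rose in SCC2 from 6.74 ± 0.35 to 9.60 ± 0.05 FPKM (0.45, adjusted p = 5.15e-06).

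Of 26 assembly and ribosomal RNA modification factors tested, 11 were higher and 6 lower in SCC1 (42.3% and 23.1%), 5 and 7 in SCC2 (19.2% and 26.9%), and 4 and 13 in SCC2 against SCC1 (15.4% and 50%). Fastkd2, needed for the large subunit's RNA, rose in both subclones, by 0.38 and 0.41. The RNA helicase gene Ddx28 rose by 0.36 and 0.23, and Mterf3, on chromosome 13, by 0.48 in SCC2. Between the subclones Rpusd3 was lower in SCC2 by 0.90 (4.69 ± 0.42 FPKM in SCC1, 2.07 ± 0.36 in SCC2) and Gtpbp10 by 0.62. Of 21 mitochondrial aminoacyl-tRNA synthetases, 9 were higher and 2 lower in SCC1 (42.9% and 9.52%), and 9 higher and 4 lower in SCC2 (42.9% and 19.05%). Iars2 rose by 0.47 in SCC1, and Aars2, on chromosome 17, fell by 0.45 in SCC2. Kars and Gars also serve the cytosol: Kars rose by 0.24 in SCC1 and Gars by 0.42 in SCC2. Of 15 genes of mitochondrial transcription and genome upkeep, 9 were higher and 1 lower in SCC1 (60% and 6.67%), and 5 higher and 4 lower in SCC2 (33.3% and 26.7%). Top1mt, the mitochondrial topoisomerase, rose by 0.70 in SCC1, and Hsd17b10, a subunit of mitochondrial RNase P, by 0.46 in SCC2. The lists were not tested as lists.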

How the data were processed

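Polyadenylated RNA was sequenced in 9 libraries, 3 each of LLC1, SCC1 and SCC2, grouped by sample title. The deposited values were FPKM, which the authors computed with cufflinks after trimming with Trimmomatic and alignment with hisat2, per the labels' series design text. Versions and annotation: not given in the sources used here. Builds were GRCm38 and mm10, per the submitters' processing notes. The labels name a SMARTER kit after RNeasy extraction and the design text a TruSeq stranded kit after mirVana extraction with 150 bp paired ends. Use of the strand in counting is unknown: 20 members share exon sequence with a protein-coding gene on the opposite strand and 4 on the same strand, so their values are uncertain. FPKM shows levels relative to the other RNA of a library.

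Tested were genes that reached 1 FPKM in 3 or more of the 9 libraries, on log2(FPKM + 1), pseudocount 1, with limma 3.58.1 (R 4.3.3, trended and robust eBayes, 1 fit of all libraries, two-sided, Benjamini-Hochberg over the 10519 genes tested, threshold 0.05). A second count took called genes with a fitted change of at least 0.32 on the log2 scale. Whole fragments came back from the FPKM values within 0.001 for all 15768 genes, up to a factor common to a gene. Members had 170 to 2145 fragments in a library, so counting error is part of the spread between libraries. Amplified copies are not independent molecules. Library pairs of a line differed by a chi-square of 1.20 to 1.74 per gene, above the 1 that counting gives, so none was treated as a copy. Positions and exon overlaps came from GENCODE M21, promoters from RefSeq (GRCm38.p6), and figures from Python 3.11.15 with pandas 2.3.3 and matplotlib 3.10.9.

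The members and the gene lists were chosen with earlier results of these data known, so no p is given for a list. Named by rule were, per comparison and subunit, up to 5 called genes with the largest difference each way, per subunit the 3 highest and 3 lowest levels, 16 members with a known separate role, and per list up to 3 called genes with the smallest adjusted p. Other names were chosen after their values were seen. Alternatives were other pseudocounts, filters, scalings, subtraction of chromosome medians, variance models, sample sets, a replicate block, leaving out each library, and assignment of subunits by structure. Protein sequences were not used here.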

Additional observations from a re-analysis of the deposited data

Results flagged for a closer look

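For 12 members both subclones differed from LLC1 in opposite directions. The difference between the subclones was also called by limma, which follows from that choice and adds no support. The 12 make up 15.4% of the 78 members, beside 22.4% of all genes tested called in opposite directions, and both subclones are compared with the same LLC1 libraries. Higher in SCC1 and lower in SCC2 were 10 of them. Their SCC2 minus SCC1 log2 differences were -0.35 for Mrpl13, -0.34 for Mrpl14, -0.40 for Mrpl18, -0.41 for Mrpl2, -0.31 for Mrpl23, -0.41 for Mrpl28, -0.49 for Mrpl38, -0.54 for Mrps24, -0.33 for Mrps5 and -0.34 for Mrps7. Lower in SCC1 and higher in SCC2 were Mrpl54, with a difference of 0.53, and Mrps6, with 0.84. With chromosome medians subtracted, both calls against LLC1 were kept for 4 of the 12: Mrpl28, Mrpl38, Mrps24 and Mrps6. The SCC1 call was lost for Mrpl23, Mrpl54 and Mrps7, the SCC2 call for Mrpl2, Mrpl14, Mrpl18 and Mrps5, and both for Mrpl13. Mrpl14, Mrpl18, Mrpl2 and Mrpl28 lie on chromosome 17, and Mrpl38, Mrps24 and Mrps7 on chromosome 11, where 65.3% and 70.9% of the other genes tested were also lower in SCC2 than in SCC1. The part of copy number in these differences was not tested.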

How the results depend on the processing

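Of 87 called differences of members named by rule, 54 kept their call and direction under all 20 alternatives, and none changed direction except when the median difference of each chromosome was subtracted, where 58 kept their call, 22 lost it and 7 changed sign. With that subtraction the counts moved to 2 small subunit genes lower in SCC2 than in LLC1 (from 6), 9 large subunit genes higher in SCC2 than in SCC1 (from 16) and 7 small subunit genes lower (from 12). Values whose sign then changed (those of Mrpl42 and Mrps22 in SCC1 and of Mrps15 between the subclones were not called before it) were, in SCC1 against LLC1, -0.071 for Mrpl13, 0.127 for Mrpl42, 0.16 for Mrps15 and 0.175 for Mrps22. In SCC2 against LLC1 it was 0.004 for Mrpl13. In SCC2 against SCC1 they were 0.009 for Mrpl12, 0.075 for Mrpl13, -0.242 for Mrps15, 0.038 for Mrps18b and -0.165 for Mrps30. In all, 31 of 44, 29 of 47 and 29 of 54 calls of members were kept in the 3 comparisons. With quantile normalization 8 large subunit genes were lower in SCC1 than in LLC1 (from 5). The cause of these changes was not tested. Leaving out 1 library took 1 to 4 of the 87 calls at a time, and limma-voom, quantile normalization and no filter took 2 each. A minimum of 5 FPKM left 83 to be tested. Each library's deviation from the mean of its line was correlated between same-numbered libraries of different lines. The values were -0.068 to 0.089, so no pairing by number was seen. The replicate block kept all 87 calls, with 21 large subunit genes higher and 5 lower in SCC1. With 3 libraries a line, small differences of low members such as Mrpl1 may be missed at this depth.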

Other observations

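Genes whose products work beside the mitochondrial ribosome were described from the same lists. Of 80 nuclear respiratory chain and ATP synthase subunits tested, 45 were higher and 17 lower in SCC1 than in LLC1 (56.2% and 21.2%, against 39.2% and 30.9% of all genes tested, median 0.12). In SCC2 against LLC1, 29 were higher and 26 lower (36.2% and 32.5%, median 0.03), close to the 34.7% and 32.9% of all genes. Ndufb9, a complex I subunit on chromosome 15, had 121 ± 1.30 FPKM in LLC1 (SD, n = 3), 156 ± 2.02 in SCC1 and 97.7 ± 1.05 in SCC2, and the subclones differed by -0.67 (limma adjusted p = 2.36e-11). Uqcrh, a complex III subunit on chromosome 4, fell by 0.55 in SCC1. Cox6c, of complex IV, fell by 0.41 in SCC2, and Sdha, of complex II on chromosome 13, rose by 0.37. Of 84 cytosolic ribosomal protein genes, 32 were higher and 36 lower in SCC1 (38.1% and 42.9%, median -0.01), and 8 were higher and 61 lower in SCC2 (9.52% and 72.6%, median -0.13). Rpsa fell by 0.47 in SCC1 and 0.43 in SCC2, and Rpl22l1 rose by 0.90 in SCC1. Many of these genes have near-identical copies, so their values are uncertain.

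Of 21 genes of protein import and processing, 14 were higher and 2 lower in SCC1 (66.7% and 9.52%), and 7 higher and 6 lower in SCC2 (33.3% and 28.6%). Tomm5, a subunit of the outer membrane pore on chromosome 4, fell by 0.36 in SCC1, and Tomm70a, an import receptor on chromosome 16, rose by 0.24 in SCC2. Of 11 chaperones and proteases, 7 were higher and 1 lower in SCC1 (63.6% and 9.09%). Hspd1, the chaperonin, rose by 0.23 in SCC1 and 0.33 in SCC2, and Afg3l2, a subunit of the m-AAA protease, rose by 0.36 in SCC1 and fell by 0.34 in SCC2. Of 9 regulators of mitochondrial biogenesis tested, 7 were higher and 1 lower in SCC1 (77.8% and 11.1%), and 6 higher and 1 lower in SCC2 (66.7% and 11.1%). Myc rose from 184 ± 4.26 FPKM in LLC1 to 237 ± 1.87 in SCC1 and 230 ± 5.19 in SCC2 (0.36 and 0.32, limma adjusted p = 3.66e-08 and 1.35e-07). Gabpa, which encodes an ETS factor and lies on chromosome 16, rose by 0.36 in SCC2, and Yy1 fell by 0.25. No link between these genes and the members was tested.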
